A study of Saccharomyces cerevisiae with 21 samples.

Results

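The large subunit of the cytosolic ribosome of the budding yeast Saccharomyces cerevisiae is described here through the transcripts of 56 of its protein genes, out of 7126 features counted in each library. The members were taken by name: RPL1A to RPL30, RPL31A, RPL32 and RPP0. The rule used no measured value, but it was set with earlier results of these data known. Examples are YLR340W (RPP0), YIL018W (RPL2B), YBR031W (RPL4A) and YPL198W (RPL7B). All 56 were matched by identifier to the reference annotation, and all 56 passed the filter on low counts. They comprise 23 pairs of gene copies (46 genes, named A and B) and 10 genes whose copy is absent or is not a member. Introns are annotated in 34 of them.

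The libraries came from biofilms of the Sigma1278B background, a laboratory strain that can form filaments and mats, grown from spots of liquid glucose cultures for 24 h on rich agar with galactose, a medium that all strains shared. There were 7 strains with 3 libraries each: the wild type (WT), 5 mutants whose label reads hypofilamentous (ste12, spt8, rim101-531, ras2, rtg3) and dig1, whose label reads hyperfilamentous. The labels do not give the construction of the mutants, further markers of the strains, or whether libraries of a strain came from separate cultures, so p-values measure the spread between these libraries, which may be technical. STE12 encodes the transcription factor of the filamentation pathway and DIG1 a repressor of it. Spt8 belongs to the SAGA coactivator, Rim101 represses genes in response to external pH, the small GTPase Ras2 stimulates cyclic AMP signalling, and Rtg3 turns on nuclear genes when mitochondria fail.

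A library held between 2388813 and 3987529 counts on features. No count of SPT8, RAS2 or RTG3 was found in the mutant named for it, and DIG1 had 1 count over the 3 dig1 libraries. STE12 was at 28.0 ± 3.6 CPM (counts relative to the size of the library; SD, n = 3) in ste12 against 59.0 ± 8.79 in WT, so the ste12 libraries kept reads on that gene (log2 fold change −1.08, edgeR adjusted p = 0.000108). RIM101 was at 164 ± 18.5 CPM in rim101-531 and 182 ± 10.8 in WT (edgeR adjusted p = 0.527), so its level does not check that label.

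Ribosomal proteins of the large subunit are made in the cytosol, imported into the nucleus and built onto ribosomal RNA with the help of assembly factors, before the subunit is exported. Their transcripts are among the most abundant in growing yeast. They are switched together by nutrient signals that run through protein kinase A and the TOR kinase. Rap1 binds most of their promoters and recruits Fhl1, Ifh1 and Hmo1, while Sfp1 adds to activation and Dot6, Tod6 and Stb3 repress the related genes for ribosome assembly. An ancient genome duplication left most of these proteins with a pair of genes.

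Upstream sequence was examined because the members are read as a group controlled by shared promoter elements. The 9-letter motif ACCCNNACA, the core of the Rap1 element, was searched on both strands in the 500 bases before each start codon of the R64 reference genome. It was present before 22 of the 56 members (39.3%), 14 of the 25 other large subunit genes (56%), 18 of 56 small subunit genes (32.1%) and 4 of 53 large subunit assembly factors (7.55%). Of all 6002 protein-coding genes examined, 329 (5.48%) had it. In the members the 25 matches lay at a median of 331 bases from the start codon (quartiles 264 and 394), and a window of 250 bases held a match in 8.93% of members and in 2.50% of all genes. A match is a string of letters and not a measured binding site, and the 34 members without one include RPP0, RPL4A, RPL4B, RPL16A and RPL7B. Matches before RPL2B, the member with the widest ratio between strains, and before RPL7A are shown with the motif in capitals, the first from chrIX:316334-316402 on the plus strand and the second from chrVII:366219-366267 on the minus strand.
RPL2B: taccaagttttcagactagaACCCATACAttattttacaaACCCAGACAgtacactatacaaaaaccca
RPL7A: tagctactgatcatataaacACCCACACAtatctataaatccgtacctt

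The copies of a pair are close in sequence, which sets how well their counts can be told apart. Coding identity within the 23 pairs ran from 78.9% for RPL22 to 99.4% for RPL1, with a median of 93.75%, and 7 pairs encode identical proteins. Stretches of 50 coding bases were compared with all annotated coding sequences, not with the rest of the genome. Of these stretches, 19% occurred only once in RPL1, 27.3% in RPL4, 39.1% in RPL11, 43.1% in RPL7, 57.9% in RPL14 and 71.6% in RPL2. In RPL16, RPL22 and the single-copy genes all of them did. Records aligned to more than 1 place were set apart by the counting and not given to a gene. Levels of copies with shared stretches are therefore understated, most in RPL1, RPL4, RPL11 and RPL7, and their split is uncertain. Aligned stretches of 90 coding bases are shown for RPL2 and RPL7, whose balance between copies spanned most over the strains, and for RPL16, which like RPL2 has a copy on chromosome IX, with the bases that differ in capitals. They start at coding base 101 from the start codon, except in RPL16B, where the aligned stretch starts at coding base 98.
RPL2A: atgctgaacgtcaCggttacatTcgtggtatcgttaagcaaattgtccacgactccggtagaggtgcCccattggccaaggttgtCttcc
RPL2B: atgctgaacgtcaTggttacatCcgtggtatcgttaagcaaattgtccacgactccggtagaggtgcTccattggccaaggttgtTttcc
RPL16A: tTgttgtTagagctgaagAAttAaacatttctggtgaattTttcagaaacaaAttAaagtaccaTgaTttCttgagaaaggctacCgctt
RPL16B: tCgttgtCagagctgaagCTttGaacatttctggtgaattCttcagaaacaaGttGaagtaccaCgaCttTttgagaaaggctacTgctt
RPL7A: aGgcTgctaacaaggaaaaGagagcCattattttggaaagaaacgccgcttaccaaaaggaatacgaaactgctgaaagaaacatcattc
RPL7B: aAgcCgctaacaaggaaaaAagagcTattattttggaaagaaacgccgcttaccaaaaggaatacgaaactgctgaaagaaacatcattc
In these windows RPL2 and RPL7 differ at 4 bases each and RPL16 at 12.

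Together the 56 members took 5.10 ± 0.113% of the feature counts in WT (SD, n = 3). The share was 6.54 ± 0.895% in rim101-531, 6.01 ± 0.483% in ste12, 5.90 ± 0.391% in ras2 and 5.80 ± 1.81% in dig1. It was 5.09 ± 1.23% in spt8 and lowest in rtg3, at 4.41 ± 0.0784%. The rim101-531, ste12 and ras2 libraries all lay above every WT library and the rtg3 libraries all lay below. The dig1 and spt8 libraries spread across the WT range, from 4.13% to 7.73% in dig1 and from 3.94% to 6.39% in spt8. With 3 libraries against 3, the exact two-sided permutation test cannot give a p below 0.10, which is the value for the 4 strains that did not overlap WT.

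**Figure D1:**
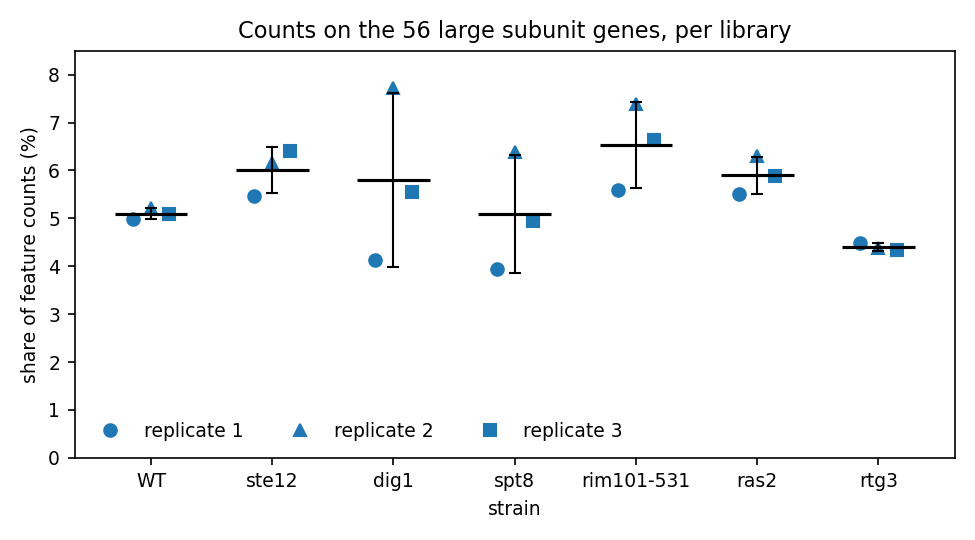
Share of feature counts (%) on the 56 large subunit genes in each library, by strain; symbols mark the replicate number, lines the mean and bars the SD of 3 libraries. WT and rtg3 are tight, at 5.10 ± 0.113% and 4.41 ± 0.0784%, while dig1 and spt8 spread widely with replicate 2 highest and replicate 1 lowest.

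Levels of single genes are given as CPM scaled by TMM, a factor that aligns the bulk of genes between libraries. Per kilobase of coding length, the mean over the 21 libraries was highest for RPL25, at 5722 CPM per kb. RPL25, next to the exit of the polypeptide tunnel, was followed by RPL10 at 3972, RPL3 at 3948 and RPL2B at 3900 CPM per kb. The lowest were RPL15B at 64.8, RPL1A at 87.8, RPL7B at 93.1 and RPL22B at 127 CPM per kb, each the minor copy of its pair. For RPL1A and RPL7B the small share of unique sequence lowers that value. Shared sequence also lowers the value of RPL2B, with 71.6% of its stretches found once, so its rank is uncertain.

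Between strains the members moved by a modest amount and largely side by side. The ratio of the highest to the lowest strain mean had a median of 1.84 over the 56 members, from 1.41 for RPL15B to 3.25 for RPL2B. The lowest strain was rtg3 for 39 members, spt8 for 16 and ras2 for RPL15B. The highest strain was rim101-531 for 31 members, ste12 for 20, dig1 for RPL2B, RPL16A and RPL10, spt8 for RPL7B and rtg3 for RPL15B. A test of any difference among the 7 strains (edgeR quasi-likelihood F-test, adjusted over 5786 genes, threshold 0.05) called 51 of the 56 members, beside 63.5% of all tested genes. Members not called were RPL13A, RPL28, RPL5, RPL8A and RPL9B, with adjusted p from 0.0511 to 0.0912. The smallest adjusted p in this test were those of RPL2B (1.72e-05), RPL16A (0.000111), RPL4B (0.000185) and RPP0 (0.000265), followed by RPL4A, RPL14A, RPL7A, RPL24A, RPL30 and RPL31A. Scaled by library totals in place of TMM, the same test called 25 members, beside 78.1% of all genes.

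Each mutant was then compared with WT, with all 6 comparisons sharing the same 3 WT libraries. The median log2 fold change of the members was 0.38 in rim101-531, 0.31 in ste12, 0.19 in dig1, 0.15 in ras2, −0.34 in spt8 and −0.43 in rtg3, while the median of all tested genes lay between −0.03 and 0.02. The value was positive for 56 of 56 members in ste12, 55 in rim101-531, 53 in dig1 and 43 in ras2, and negative for 50 in spt8 and 55 in rtg3. The dig1 and spt8 medians depended on single libraries: in dig1 the value was −0.06 without dig1 replicate 2 and 0.41 without replicate 1, and in spt8 it was −0.18 without spt8 replicate 1 and −0.56 without replicate 2. Between 0 and 9 members passed the test in each of these comparisons. Library totals as the scale put the median of all genes 0.26 above WT in spt8, 0.25 above in rtg3 and −0.12 in ste12. On that scale the members' median was −0.10 in spt8 and −0.18 in rtg3. Its distance from the median gene was −0.36 and −0.43, beside −0.35 and −0.43 with TMM. A change of scale moves all genes of a library together. That distance therefore hardly depends on the scale, and its agreement is no test of the members' fall. Of all genes called, the share called higher was 43.5% with TMM and 79.5% with library totals in spt8, 45.5% and 86.1% in rtg3, 47.8% and 30.1% in ste12, 51.0% and 38.4% in dig1, and 40.9% and 56.9% in ras2.

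**Figure D2:**
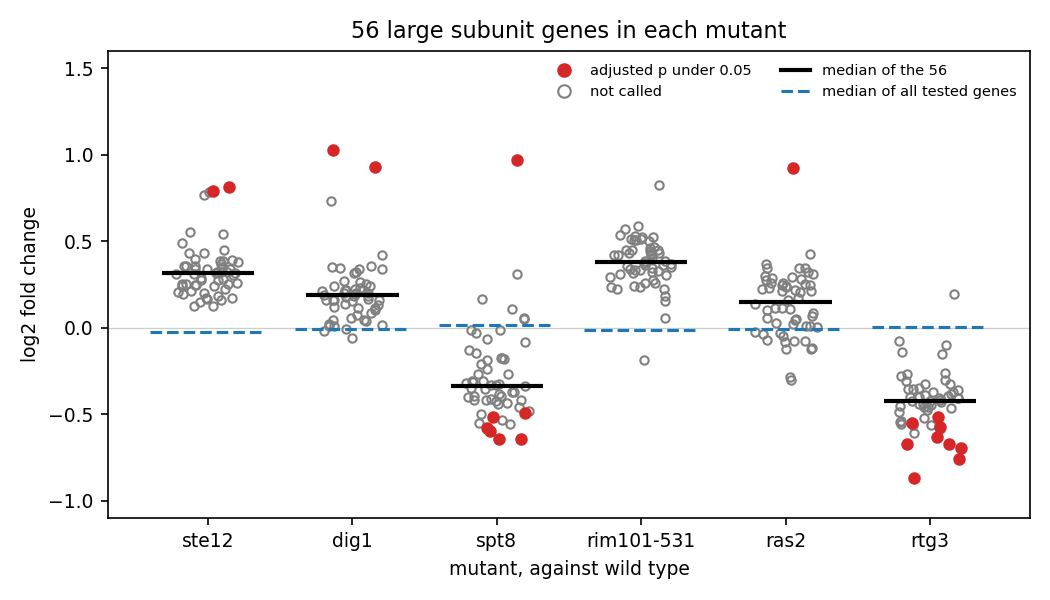
Log2 fold change against WT of each of the 56 genes in the 6 mutants (edgeR, TMM scale); filled points passed the adjusted p threshold of 0.05, solid lines are the medians of the 56 and dashed lines those of all tested genes. Medians run from 0.38 in rim101-531 to −0.43 in rtg3, and the filled points above 0.9 are RPL2B and RPL16A in dig1 and RPL7B in spt8 and ras2.

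In rtg3, 9 members were lower than in WT and none was higher, beside 11.2% of all genes called lower and 9.32% called higher. The transcript that fell most was RPP0 (chromosome XII, 805887 to 806825, 1 exon), which encodes the base of the ribosomal stalk, where translation factors dock. RPP0 was at 2964, 2687 and 2905 CPM in the WT libraries and at 1548, 1613 and 1520 in rtg3, without overlap. It was 1.83-fold lower (log2 fold change −0.87 ± 0.17 SE, edgeR adjusted p = 0.00142).

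The copies of RPL4, whose protein joins the subunit early and lines the exit tunnel, fell together in rtg3. RPL4B (chromosome IV, 471853 to 472941) was at 735, 784 and 765 CPM in WT and at 459, 457 and 434 in rtg3, which is 1.69-fold lower (edgeR adjusted p = 0.00334). RPL4A (chromosome II, 300166 to 301254) was at 1907, 2057 and 2080 CPM in WT and at 1275, 1303 and 1211 in rtg3, which is 1.6-fold lower (edgeR adjusted p = 0.00732). No library of either copy overlapped between these strains. RPP0, RPL4A and RPL4B were the calls that held in every alternative that was run.

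The other members called lower in rtg3 were RPL14A, RPL2B, RPL30, RPL26B, RPL1B and RPL24A, with log2 fold changes from −0.70 to −0.52 and edgeR adjusted p from 0.0195 to 0.0447. RPL14A was at 739, 756 and 737 CPM in WT and at 465, 492 and 419 in rtg3. RPL30, whose protein binds its own transcript and holds back its splicing, was at 1009, 838 and 929 CPM in WT and at 641, 626 and 625 in rtg3. Of the 6 alternatives that left out a library, RPL1B and RPL24A lost their call in all 6. RPL2B, RPL26B and RPL30 lost theirs in 5, and RPL14A in 4. RPL15B was the only member with a positive value, 0.19, which was not called; its WT libraries were at 38.4, 42.9 and 41.5 CPM and its rtg3 libraries at 51.9, 47.3 and 41.3.

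The fold change in rtg3 was negative for 55 of the 56 members, of which 9 were called. All rtg3 libraries lay below all WT libraries for 52 of the 56 members (92.9%), beside 21.6% of all tested genes, and above them for none, beside 22%. Separation from WT was also seen in other mutants. In ste12 and in rim101-531, 36 members (64.3%) lay above all WT libraries, beside 12.3% and 11.1% of all tested genes. None lay below in these 2 mutants, beside 15.3% and 12.7%. In ras2, 24 members (42.9%) lay above and 4 (7.14%) below, beside 20.8% and 22.8% of all genes. In spt8, 11 (19.6%) lay below and 1 (1.79%) above, beside 20.5% and 18.6%. In dig1, 2 (3.57%) lay above and none below, beside 12.8% and 14.7%. In a fit of only the 6 WT and rtg3 libraries, 50 members were lower, beside 14.8% of all genes called lower and 13.4% called higher in that fit. That fit also redid the filter and the scaling, and what moved the count was not tested. The median SD of a member between libraries of a strain was 0.064 in rtg3 and 0.075 in WT on the log2 scale but 0.40 in spt8 and 0.48 in dig1. Without WT replicate 3, rtg3 replicate 1 or rtg3 replicate 3 the number called lower fell from 9 to 3 (without WT replicate 3, 6.97% of all genes were lower and 6.73% higher), and without WT replicate 1 or 2 to 4. With library totals as the scale 3 members were lower and 1, RPL15B, higher. On that scale 86.1% of all genes called in rtg3 were higher. The share of all genes called is given with the alternatives at the end.

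In spt8, 6 members were lower and 1 was higher, beside 14.4% and 11.1% of all genes. RPL24A, which joins the subunit late in the cytoplasm and forms a bridge to the small subunit, had the smallest p of the lower ones. Its libraries were at 954, 1012 and 964 CPM in WT and at 482, 779 and 613 in spt8, all below WT, with a log2 fold change of −0.65 ± 0.18 (edgeR adjusted p = 0.0105). RPL14A (366, 634 and 474 CPM in spt8), RPL31A and RPL20B were lower with edgeR adjusted p from 0.0338 to 0.0349, and RPL6A and RPL13B with 0.0467 and 0.0498. RPL31A, at the exit tunnel, was at 865, 945 and 853 CPM in WT and at 403, 769 and 532 in spt8.

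These falls rest on the spt8 libraries unevenly. Replicate 1 was the lowest for 55 of the 56 members and replicate 2 the highest for all 56, by a median of 0.79 on the log2 scale between them. Without replicate 2, 22 members were lower and none higher, beside 12.8% and 9.50% of all genes. Without replicate 1 none was lower and RPL7B alone was higher, beside 13.8% and 9.65% of all genes. Leaving out spt8 replicate 3 or any WT library left RPL24A lower and RPL7B higher. Scaled by library totals, none was lower and RPL7B and RPL10 were higher.

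RPL7B (chromosome XVI, 173152 to 174702, 2 introns), the minor copy of its pair, was the member that rose in spt8. It was at 41.3, 47.1 and 42.9 CPM in WT and at 62.8, 125 and 69.9 in spt8, all above WT. The log2 fold change was 0.97 ± 0.25 (edgeR adjusted p = 0.00747), and without spt8 replicate 2 it was 0.60 with an adjusted p of 0.0707. The major copy RPL7A was at 541, 515 and 543 CPM in WT and at 331, 507 and 400 in spt8, a log2 fold change of −0.37 that was not called.

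RPL7B was also the 1 member called in ras2, where it was higher, beside 10.3% of all genes called higher and 14.9% called lower. Its ras2 libraries were at 82.2, 91.5 and 75.3 CPM, all above WT, with a log2 fold change of 0.92 ± 0.25 (edgeR adjusted p = 0.0108). In ste12, at 75.8, 81.2 and 68.7 CPM, and in rim101-531, at 65.6, 95.8 and 70.7, its libraries also lay above WT, with log2 fold changes of 0.78 and 0.82 that edgeR did not call. The dig1 libraries were at 46.2, 102 and 69.5 CPM and reached into the WT range. WT and rtg3 (41.7, 44.6 and 36.4 CPM) were thus the strains with RPL7B low, and the log2 difference of ras2 from the average of the remaining mutants was 0.28, which was not called.

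In ste12, 2 members were higher and none lower, beside 4.77% and 5.20% of all genes (9.97% in either direction). RPL15A, the dominant copy of its pair (chromosome XII, 201976 to 202590), was at 1607, 1761 and 1719 CPM in WT and at 2606, 2936 and 3237 in ste12. It was 1.73-fold higher without overlap (edgeR adjusted p = 0.0257). RPL22B, the minor copy of a protein that in yeast restrains splicing of its own transcript, was at 34.2, 49.7 and 34.9 CPM in WT and at 46.9, 86.3 and 75.6 in ste12. Its groups overlapped although it was called (log2 fold change 0.81 ± 0.22, edgeR adjusted p = 0.0244). Leaving out ste12 replicate 1 kept 2 calls and leaving out WT replicate 2 kept 1, while leaving out WT replicate 1, WT replicate 3, ste12 replicate 2 or ste12 replicate 3 left none.

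No member was called in rim101-531 by edgeR, beside 1.28% of all genes called higher and 1.80% lower (3.08% in all), although its median was the highest. At an unadjusted p under 0.05, 17 members (30.4%) were higher and none lower, beside 7.12% and 10.1% of all genes at that p. DESeq2's Wald test called 1 member, RPL7B. The largest values were those of RPL7B, 0.82, RPL9A, 0.58, and RPL2A, 0.57. RPL2A was at 868, 933 and 901 CPM in WT and at 1102, 1545 and 1361 in rim101-531, all above WT.

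In dig1, 2 members were higher and none lower, beside 8.02% and 7.69% of all genes (15.7% in either direction). They were RPL2B, next to the centre that joins amino acids, and RPL16A, and both lie on chromosome IX. RPL2B (316768 to 317932, 1 intron) was at 2652, 2520 and 2641 CPM in WT and at 3592, 7308 and 5023 in dig1, all above WT, a log2 fold change of 1.03 ± 0.20 (edgeR adjusted p = 0.00108). RPL16A (98527 to 99416, 1 intron) was at 697, 798 and 752 CPM in WT and at 972, 1959 and 1352 in dig1, all above WT, with 0.93 ± 0.21 (edgeR adjusted p = 0.00440). The copies on other chromosomes were not called: RPL2A on VI had 0.26 and RPL16B on XIV 0.34.

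Chromosome IX as a whole stood apart in dig1. The 196 tested genes on it had a median log2 fold change of 0.80 against WT (quartiles 0.60 and 0.99), and 149 of them were called higher and none lower. Medians of the other chromosomes lay between −0.05 and 0.04, except for chromosome III at 0.24, which holds no member. The median of chromosome IX against WT was 0.776, 0.772 and 0.822 in the 3 dig1 libraries and between −0.11 and 0.02 in every other library. RPL2B and RPL16A are the only members on chromosome IX, and the other 4 tested genes of the ribosomal lists there were called as well: RPL34B at 0.95, RPL40A at 0.93, RPS24B at 0.98 and SQT1, the chaperone of Rpl10, at 1.08. Not every ribosomal protein gene called in dig1 lies there. The small subunit gene RPS22B, on chromosome XII, was also higher, at 0.60 (edgeR adjusted p = 0.0419).

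None of the 54 members on other chromosomes was called in dig1 by edgeR (median 0.18, smallest adjusted p 0.0586), 2 of them were higher at an unadjusted p under 0.05 (12.9% of all genes were higher at that p), and DESeq2 called 1, RPL7B. With the counts of chromosome IX genes in dig1 offset by that chromosome's median, a setting chosen after seeing the data, RPL2B was at 0.23 (edgeR adjusted p = 0.542) and RPL16A at 0.13 (edgeR adjusted p = 0.762), and no member was called. That setting takes the chromosome's median off each of its genes. The lower values of RPL2B and RPL16A follow from this subtraction and are no test. DNA copy number was not measured, and the part of the chromosome in these 2 calls was not tested.

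**Figure D3:**
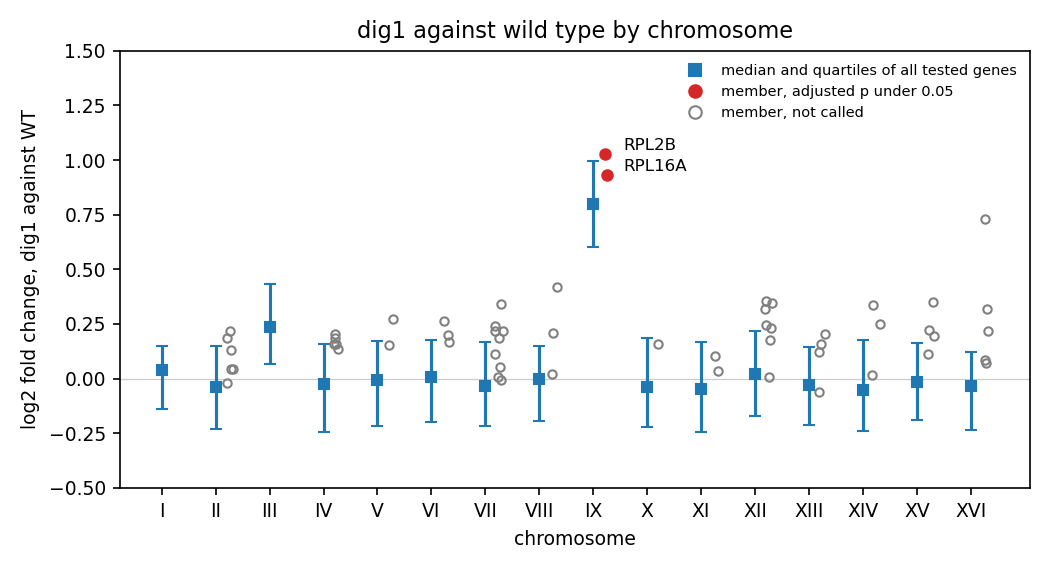
Log2 fold change in dig1 against WT by chromosome; squares and bars are the median and quartiles of all tested genes, circles the large subunit genes, filled where adjusted p was under 0.05. The 196 genes of chromosome IX centre on 0.80, and RPL2B (1.03) and RPL16A (0.93) sit with them.

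Set against ste12, a mutant with the opposite phenotype label, dig1 had the same pair of members higher and none lower. Of all genes, 11.6% were higher and 10.1% lower. RPL2B was at 2706, 2863 and 2954 CPM in ste12, below every dig1 library (log2 fold change 0.90 ± 0.20, edgeR adjusted p = 0.00231). RPL16A was at 745, 956 and 925 CPM in ste12, below every dig1 library (0.71 ± 0.21, edgeR adjusted p = 0.0215). With the chromosome IX offset the values were 0.07 and −0.12, with edgeR adjusted p of 0.860 and 0.763. These values too follow from the subtraction. Without ste12 replicate 1, RPL16A lost its call, with 0.61 and an adjusted p of 0.0802, and 1 member was lower. The median of all 56 was −0.16, and it was 0.06 without dig1 replicate 1 and −0.43 without dig1 replicate 2. Without replicate 2 RPL2B alone was higher and 17 members were lower, beside 13.4% and 10.4% of all genes. Against WT, 8 members were higher in dig1 without dig1 replicate 1, beside 8.75% of all genes called higher and 7.98% lower.

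A fit of only the 6 libraries of the strains compared, with its own filter, scaling and estimate of spread, gave other counts, and which of these choices moved them was not tested. In ste12, 10 members were then higher and none lower, beside 4.33% and 2.93% of all genes. In ras2, 9 were higher and none lower, beside 12.5% and 15%. In spt8, 1 was higher and 2 were lower, beside 7.09% and 12.7%, and in rim101-531, 1 was higher and none lower, beside 0.584% and 0.495%. No member was called in dig1 against WT (4.95% of all genes higher, 1.83% lower, and 3 members higher at an unadjusted p under 0.05, beside 12.9% of all genes) or against ste12 (6.19% and 4.50%, and 2 members higher and 1 lower unadjusted, beside 13.6% and 10.9% of all genes). RPL2B then had an edgeR adjusted p of 0.0547 and RPL16A of 0.0665 in dig1 against WT, at log2 fold changes of 1.09 and 1.00.

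Over the strains, the median SD of a member between libraries was 0.28 on the log2 scale, beside 0.27 for small subunit genes, 0.20 for all genes and 0.21 for the 363 genes at or above the members' lower quartile of abundance. Replicate 2 lay above replicate 1 by a median of 0.96 in dig1, 0.79 in spt8 and 0.48 in rim101-531, for 56 of 56 members each. The difference was 0.19 in ras2 and 0.18 in ste12 (53 members each), 0.11 in WT (41) and 0.02 in rtg3 (31). Small subunit genes had nearly the same differences, 0.996 in dig1, 0.747 in spt8 and 0.476 in rim101-531, for 56 of 56 genes each. The medians of the 53 large subunit assembly factors were larger, at 1.52 in dig1, 0.93 in spt8, 0.85 in ste12 and rim101-531, 0.60 in WT and 0.48 in ras2. In rtg3 they went the other way, −0.47, with replicate 2 above replicate 1 for 0 of 53. The labels do not say which cultures or days the numbers mark, and their part in the spread was not tested.

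**Figure D4:**
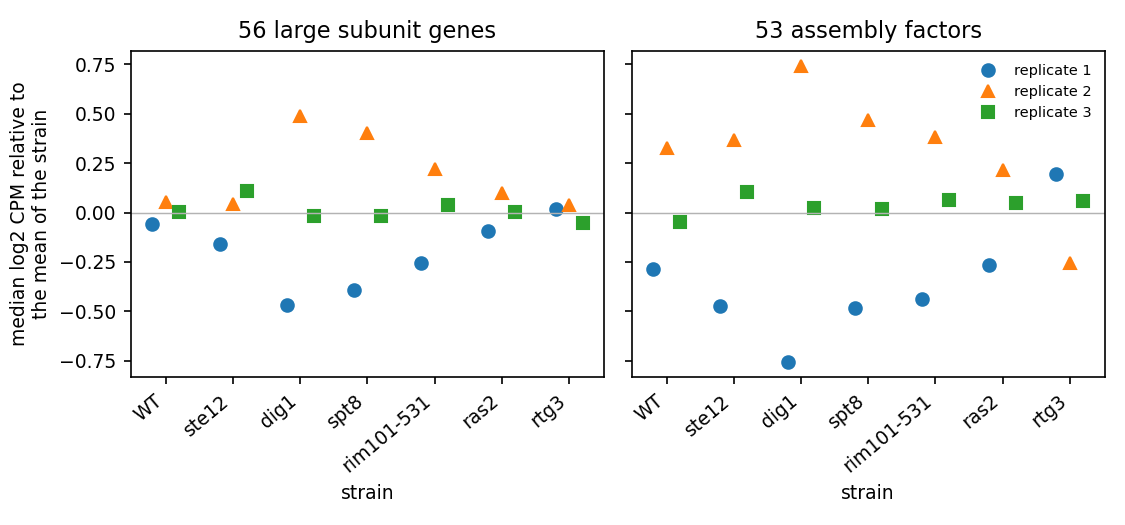
Median log2 CPM of the 56 large subunit genes and of 53 assembly factors in each library, relative to the mean of its strain (n = 3 libraries per strain). Replicate 2 is above replicate 1 in all 7 strains for the large subunit genes, by 0.96 in dig1 but 0.02 in rtg3, and in all strains but rtg3 for the assembly factors.

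Members without a second copy among the 56 can be read free of shared sequence. RPL3, which shapes the catalytic centre, was at 3913, 3990 and 3981 CPM in WT, at 5162, 5641 and 5848 in ste12 and at 3486, 3140 and 3232 in rtg3. RPL25 was at 2397, 2331 and 2342 CPM in WT, at 2937, 3251 and 3460 in ste12 and at 1813, 1902 and 1821 in rtg3. For both genes the ste12 libraries were all above WT and the rtg3 libraries all below, but neither was called in either comparison. RPL10, which is added late, in the cytoplasm, was at 2359, 2547 and 2503 CPM in WT and at 1902, 1851 and 1782 in rtg3 (log2 fold change −0.42, edgeR adjusted p = 0.0699).

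RPL5 carries the 5S ribosomal RNA into the subunit. RPL5 was at 1998 ± 153 CPM in WT and 1465 ± 68.2 in rtg3 (SD, n = 3), and its dig1 libraries ran from 1314 to 3008. RPL28, the site of classical cycloheximide resistance mutations, was at 276 ± 6.19 CPM in WT, 349 ± 13.5 in ste12 and 220 ± 14.7 in rtg3. RPL29, which is not essential in yeast, was at 265 ± 32.1 CPM in WT and 174 ± 23.2 in rtg3 (log2 fold change −0.61, edgeR adjusted p = 0.0541). RPL32 was at 1305 ± 48.5 CPM in WT, 1713 ± 172 in ste12 and 1073 ± 13.8 in rtg3. None of these 4 passed the test in any comparison, and the order of strains, with ste12 or rim101-531 highest and rtg3 or spt8 lowest, was the same as in most members.

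The balance between the copies of a pair does not depend on the scaling of a library. The A copy held more than 50 percent of the pair's counts in 14 of the 23 pairs, from 6.09% in RPL1 to 98.1% in RPL15. Across strains the balance was mostly steady: the log2 ratio of A to B spanned a median of 0.32 between the lowest and highest strain, and under 0.5 in 17 pairs. RPL12, RPL19 and RPL1 moved least, by 0.10 to 0.13. No test was made on these shares.

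RPL7 spanned most, 1.29, with RPL7A at 92.4 ± 0.688% of the pair in WT and 83.1 ± 2.60% in spt8. In spt8 both copies enter this share, with RPL7B at 0.97 and RPL7A, which was not called, at −0.37. RPL2 followed with 1.09: RPL2A held 25.7 ± 1.20% in WT, 16.9 ± 0.121% in dig1 and 30.2 ± 0.0851% in rtg3, and neither of these mutants overlapped WT. RPL16A, the chromosome IX copy of its pair, held 29.6 ± 0.567% in WT, 39.1 ± 1.15% in dig1 and between 28.0% and 29.9% on average in the other strains. RPL2 and RPL16 are the pairs with a copy on chromosome IX, and in both the share of that copy was higher in dig1 than in any library of the other strains.

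In RPL15 the A copy held 97.6 ± 0.0226% in WT, 98.5 ± 0.227% in rim101-531 and 97.0 ± 0.278% in rtg3, all without overlap with WT. RPL9A held 71.2 ± 3.47% in WT, 65.2 ± 3.31% in spt8 and 77.9 ± 1.68% in rim101-531, and the spt8 libraries overlapped WT. RPL8A held 50.3 ± 4.98% in WT, with libraries from 45.4% to 55.4%, 59.7 ± 1.42% in ste12 and 47.0 ± 1.31% in ras2. For RPL8 the WT libraries spread more than those of any mutant, and ste12 was the 1 strain apart from them.

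**Figure D5:**
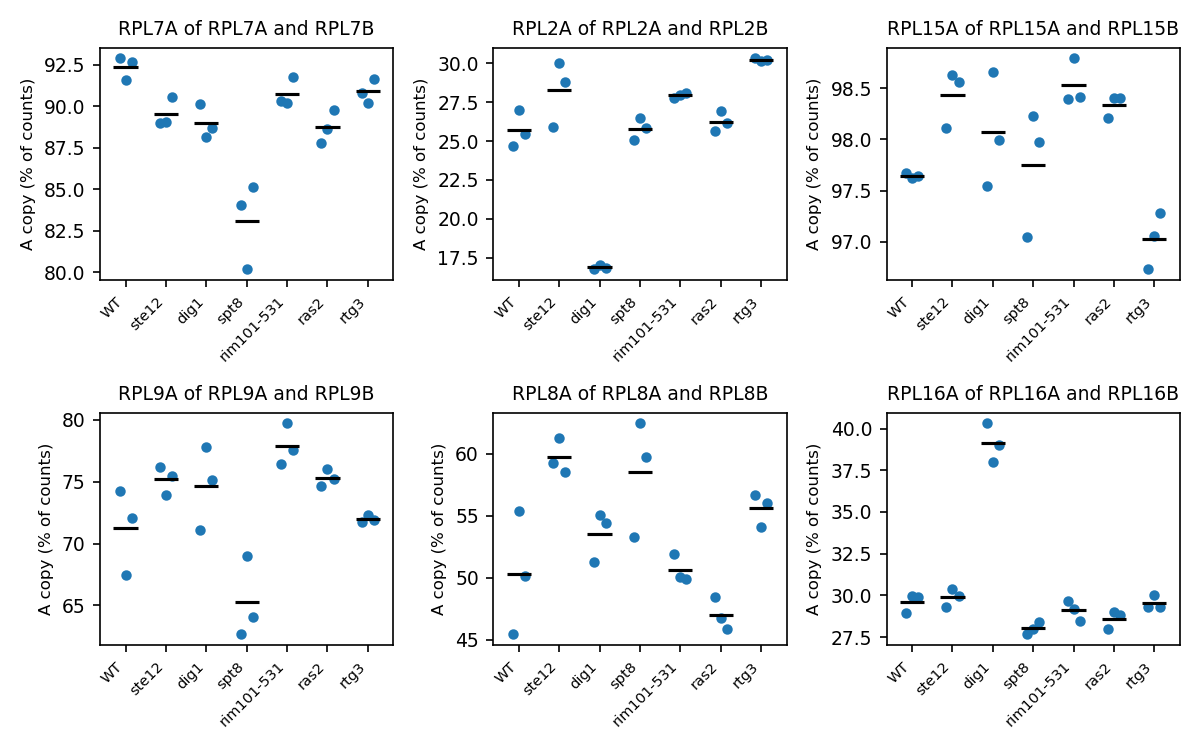
Share of the A copy in the counts of a pair (%), in each library (points) and on average (lines) by strain, for the 6 pairs with the widest span; the vertical axes differ and do not start at 0. RPL2A falls to 16.9% and RPL16A rises to 39.1% in dig1, and RPL7A falls to 83.1% in spt8.

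Other ribosomal genes gave the measure for the members. All genes gave 11.2% lower in rtg3 and 14.4% lower in spt8. Of the 25 large subunit genes outside the 56, 24 were tested, and 6 (25%) were lower in rtg3 and 3 (12.5%) in spt8, with medians of −0.48 and −0.41. Of the 56 small subunit genes, 18 (32.1%) were lower in rtg3 and 14 (25%) in spt8, with medians of −0.45 in both. Of the 4 genes for stalk proteins that bind Rpp0, RPP1B and RPP2A fell in rtg3, with log2 fold changes of −0.96 and −0.75 (edgeR adjusted p = 0.00290 and 0.0103). RPP1A, at −0.55, and RPP2B, at −0.46, were not called (adjusted p = 0.0698 and 0.165). Of the 53 assembly factors 1 was lower in rtg3 (TIF6, −0.58) and none in spt8, with medians of −0.37 and 0.03, so in spt8 their median lay above the members' −0.34. In rim101-531 that median was −0.05 while the members' was 0.38; whether the lists differ was not tested.

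Among 10 regulators of ribosomal genes, HMO1 and RAP1 were higher in rtg3, at 0.41 and 0.33. In ras2, RAP1 (0.44), FHL1 (0.38), SFP1 (0.37) and HMO1 (0.37) were higher and DOT6 was lower by a log2 fold change of −0.70. HMO1 was higher in ste12 (0.40) and SFP1 in spt8 (0.36). DOT6 was lower (−0.84) and STB3 higher (0.46) in dig1. The edgeR adjusted p of these calls ran from 6.05e-06 for DOT6 in dig1 to 0.0366 for FHL1 in ras2. Regulators called were 50% of the 10 in ras2, 20% in rtg3 and dig1, and 10% in ste12 and spt8. All genes gave 25.3%, 20.5%, 15.7%, 9.97% and 25.5%. In dig1 against ste12, DOT6 (−1.07), HMO1 (−0.40) and RAP1 (−0.32) were lower and STB3 (0.61) and SFP1 (0.38) higher. That was 50% of the 10, beside 21.7% of all genes.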

How the data were processed

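RNA of 21 biofilm libraries was measured, 3 for each of 7 strains, grouped by the labels. The labels' protocols name hot acid phenol extraction, polyA selection and a TruSeq kit. Per the submitters' processing notes, the tools were HTSeq 0.6.1, TopHat2 2.0.19 and bcl2fastq, with genome build R64. The sources used here do not say how strand and filters were set. The authors deposited raw counts per feature. Records given to no gene (40.1% to 47.8% of a library) were left out. Those aligned to several places made up 21.2% of records in WT, 27.9% in dig1, 24.3% in spt8 and 18.8% in ras2 and rtg3. Sigma1278B reads were aligned to a reference of another background, and overlapping or antisense genes cannot be told apart.

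Counts were fitted with edgeR 4.0.16 in R 4.3.3: filterByExpr by strain (5786 genes), TMM factors (0.893 to 1.16), 1 quasi-likelihood model over all 21 libraries with a mean per strain, two-sided tests, Benjamini-Hochberg adjustment over all tested genes and a threshold of 0.05. Replicates of a strain differed by more than sampling noise (chi-square over its degrees of freedom 1.93 to 56.9). The fit was tested on simulated data in which each gene varied on its own. That test does not cover shifts that many genes of a library share. Alternatives were DESeq2 1.42.0, other scalings, no filter, only the libraries of both strains, another reference, added copies, a replicate term and leaving out each library. The chromosome IX offset, library totals as the scale and DESeq2's likelihood ratio test were chosen after seeing the data.

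The members, the other gene lists and the tests were chosen with earlier results of these data known. Genes named in full were the members without a copy, the 4 with the smallest p among those called per comparison and direction, the 10 with the smallest p over the 7 strains and the 6 pairs of widest span. Each other list adds up to 3 called genes per comparison, given here where a member's result turns on them, and further names were chosen after their values were seen. Motif and identity values come from the R64 reference.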

Additional observations from a re-analysis of the deposited data

How the results depend on the processing

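Of 283 alternative values for the comparisons, 232 stayed close to the reported ones and 51 moved; of 327 for single called genes, 224 kept direction and call, 102 kept direction and lost the call, and 1 changed sign. That was RPL16A in dig1 against ste12, −0.12 with the chromosome IX offset, which takes that chromosome's median off the gene. Numbers of members called under the settings that moved them, in the order ste12, dig1, spt8, rim101-531, ras2, rtg3 against WT and dig1 against ste12, were as follows. With only the libraries of both strains they were 10, 0, 3, 1, 9, 50 and 0. With added copies (33 genes) they were 1 in ste12, 1 in dig1, 3 in spt8, 0 in ras2 and 1 in dig1 against ste12, and 31 over the 7 strains, beside 9.27%, 15%, 25.7%, 25.5%, 21.8% and 63.3% of all genes. Against the mean of the other mutants they were 13 in ste12, 29 in spt8, 6 in rim101-531 and 52 in rtg3 (median −0.57), beside 27.3%, 31%, 5.72% and 35.3% of all genes. DESeq2 called 1 in rim101-531 (4.56% of all genes). With the chromosome IX offset 0 were called in dig1 against WT and against ste12 (12.8% and 19.1%). With library totals 2 were called in spt8, 4 in rtg3 (median −0.18) and 25 over the 7 strains, beside 40.4%, 38.5% and 78.1%. The summed share of rtg3 over WT was 0.864, and 0.901 over all alignment records.

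With the replicate number as a block the counts were 8, 3, 26, 4, 3, 35 and 6, and 56 over the 7 strains, beside 13.4%, 19.1%, 30.9%, 4.65%, 30.6%, 28%, 24.9% and 71.2% of all genes. The numbers paired the libraries in part. Correlations of the deviations of same-numbered libraries had a median of 0.37 for replicate 1 (−0.38 to 0.67) and 0.37 for replicate 2 (−0.42 to 0.68). For replicate 3 the median was −0.02 (−0.06 to 0.07). The cause of the changed counts was not tested.

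Leaving out 1 library gave 0 to 2 members called in ste12, 2 to 8 in dig1 and 1 to 22 in spt8. It gave 3 to 6 in rtg3 and 2 to 18 in dig1 against ste12. Beside the 8 in dig1, 8.75% of all genes were higher and 7.98% lower. Beside the 22 in spt8, 12.8% were lower and 9.50% higher. Beside the 18 in dig1 against ste12, 13.4% were higher and 10.4% lower. Such shares are not given for every leave-out. The median of the members ran from −0.44 to −0.38 in rtg3, −0.06 to 0.41 in dig1 and −0.56 to −0.18 in spt8. A leave-out leaves 2 libraries in a strain and relies on the shared spread. Depth limits the minor copies most, such as RPL15B with a mean count of 122.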
